A study of Homo sapiens with 18 samples.

Results

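The genes of the AP-1 transcription factor and related immediate early genes were followed through an ATAC-seq series in HEK293T, an embryonic kidney cell line of human origin. The members were the 10 gene entries with the symbols FOS, FOSB, FOSL1, FOSL2, JUN, JUNB, JUND, EGR1, IER2 and MYC, chosen by name from 54425 entries of the count table. Earlier results of these data were known when the members and the lists of related genes were chosen. All 10 passed the filter on low counts, as did 17660 entries in all. Counts in ATAC-seq are reads from DNA that a transposase could enter, so the values below describe how open or how sampled the chromatin at a gene was and are not transcript levels.

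The 18 libraries formed 6 groups of 3, from 3 construct settings on day 3 and day 28. AF4-MLL cells carried an inducible AF4-MLL construct, MLL-AF4 cells an inducible MLL-AF4 construct, and co-expression cells a constitutive MLL-AF4 construct together with the inducible AF4-MLL construct. These are the reciprocal fusions of the translocation t(4;11), which joins KMT2A (MLL) to AFF1 (AF4). In every group the inducible construct was induced for 48 h by 1 µg/ml doxycycline, so day 28 followed weeks of culture after induction. The constructs were Sleeping Beauty vectors in kidney cells, not in the blood cells in which the translocation occurs. The labels call the cells stably transfected, whereas the study's methods describe the inducible AF4-MLL construct of the co-expression cells as added transiently and then lost by segregation. Whether the groups with a single fusion differ in this is not given in the sources used here, and no cells without a fusion construct are among the labelled libraries. Day, culture time and time since doxycycline cannot be told apart. The methods give blasticidin for the same 48 h as doxycycline, after the transient transfection of the co-expression cells. In those cells, time since transfection and selection cannot be told from the day either. The labels number the biological replicates but do not say whether they were separate cultures, so p-values measure the spread between these libraries, which may be technical.

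AP-1 is a dimer of basic leucine zipper proteins. A JUN protein pairs with another JUN protein or with a FOS protein, and the dimer binds short palindromic DNA sites. The genes for many of these proteins belong to the immediate early genes, which growth factors, serum and stress switch on within minutes through MAP kinases, SRF with its ELK partners, and CREB and ATF factors, without new protein synthesis. EGR1 is a zinc finger factor of the same kind, IER2 an immediate early nuclear protein, and MYC a growth regulator that dimerises with MAX.

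Library totals ran from 442159 to 3539937 counts with a median of 1254820, and counts outside the 37 mitochondrial genes from 297567 to 1116385. Mitochondrial genes took 32.7 to 45.61% of a library on day 3 and 63.56 to 68.46% on day 28, so this share moved with the day in every setting. The TMM-scaled values below, normalised read counts scaled to a common library size (CPM), use library sizes summed over the genes tested. As a check of the labels, KMT2A on day 3 stood at 96.5 ± 12.6 CPM with the AF4-MLL construct, 35.7 ± 6.94 CPM with the MLL-AF4 construct and 52.8 ± 5.09 CPM with both (SD, n = 3). On day 28 these values were 94, 45.4 and 67.4 CPM. Co-expression cells lay below AF4-MLL cells on both days, although both were given the AF4-MLL construct. The methods describe that construct as lost from the co-expression cells, and KMT2A there was not lower on day 28 than on day 3. The reasons were not tested. AFF1 did not separate the constructs on day 3, at 62.9, 61.9 and 52.8 CPM in the same order, so neither gene checks every label. All 7 genes listed as markers of HEK293 cells passed the count filter, with summed values of 129 to 208 CPM over the libraries. Of 5 leukocyte markers 3 passed, and all 5 summed to 37.6 to 60.3 CPM. Of 4 muscle and liver markers 1 passed, APOA1 at 18.8 to 34.2 CPM, and all 4 summed to 27.5 to 46.2 CPM. No marker was at 0 in every library of a group, so the identity of the cells rests on the labels.

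The promoters of JUN, EGR1 and RHOB are shown because JUN and EGR1 were the members called between the days and RHOB was the related gene called lower in each setting. Each run gives the 250 bases before the annotated start in RefSeq on GRCh38.p14, the same build the labels name, read along the gene. JUN lies at chr1:58780791-58784047 on the minus strand and its run at chr1:58784048-58784297. EGR1 lies at chr5:138465479-138469303 on the plus strand with its run at chr5:138465229-138465478, and the run of RHOB, also on the plus strand, lies at chr2:20446824-20447073. Capitals mark the core TGACG or its complement CGTCA, the letters TGACATCA in JUN, and the matches to the serum response element in EGR1.
JUN: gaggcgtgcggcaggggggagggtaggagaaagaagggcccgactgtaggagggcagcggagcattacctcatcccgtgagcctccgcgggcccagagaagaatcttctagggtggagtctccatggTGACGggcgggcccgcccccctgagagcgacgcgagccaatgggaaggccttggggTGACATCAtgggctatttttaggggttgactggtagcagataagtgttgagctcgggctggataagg
EGR1: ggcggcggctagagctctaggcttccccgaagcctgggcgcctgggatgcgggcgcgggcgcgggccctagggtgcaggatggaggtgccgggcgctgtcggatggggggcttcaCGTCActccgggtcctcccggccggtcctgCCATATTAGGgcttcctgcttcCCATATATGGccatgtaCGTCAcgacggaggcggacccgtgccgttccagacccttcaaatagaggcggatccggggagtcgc
RHOB: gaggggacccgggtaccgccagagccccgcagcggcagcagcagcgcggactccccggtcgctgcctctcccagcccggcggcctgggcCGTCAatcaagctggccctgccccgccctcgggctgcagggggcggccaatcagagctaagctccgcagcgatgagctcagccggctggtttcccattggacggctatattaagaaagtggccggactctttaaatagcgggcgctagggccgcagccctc

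A promoter sequence was given for 8 of the 10 members, FOSL1 and MYC being the others. All 8 hold TGACG on either strand in these 250 bases, the core of the element bound by CREB and ATF factors, against 21.7% of 27305 promoters of the same length. The complete element TGACGTCA, which contains that core, was found upstream of JUND and none of the other 7, and in 1.77% of all promoters. JUN holds TGACATCA, an AP-1-like variant of that element, between 67 and 60 bases before the start (2.45% of promoters). EGR1 holds 2 matches to the serum response element, at 105 to 96 and 83 to 74 bases before the start, a motif found in 1.14% of promoters. TATAAA was found in FOS, FOSB and JUNB (11.1% of promoters), CCAAT in JUN, JUNB and JUND (33.0%) and GGGCGG in 6 members (42.3%). The AP-1 site TGANTCA (6.6%), the MYC site CACGTG (6.49%) and the EGR1 site GCGGGGGCG (4.68%) were found in 0 of the 8 windows. GC content of the 8 promoter windows of 300 bases was 62.0 to 77.0% with a median of 69.0%, and the median over 18017 genes of the table was 61.7%.

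**Figure D1:**
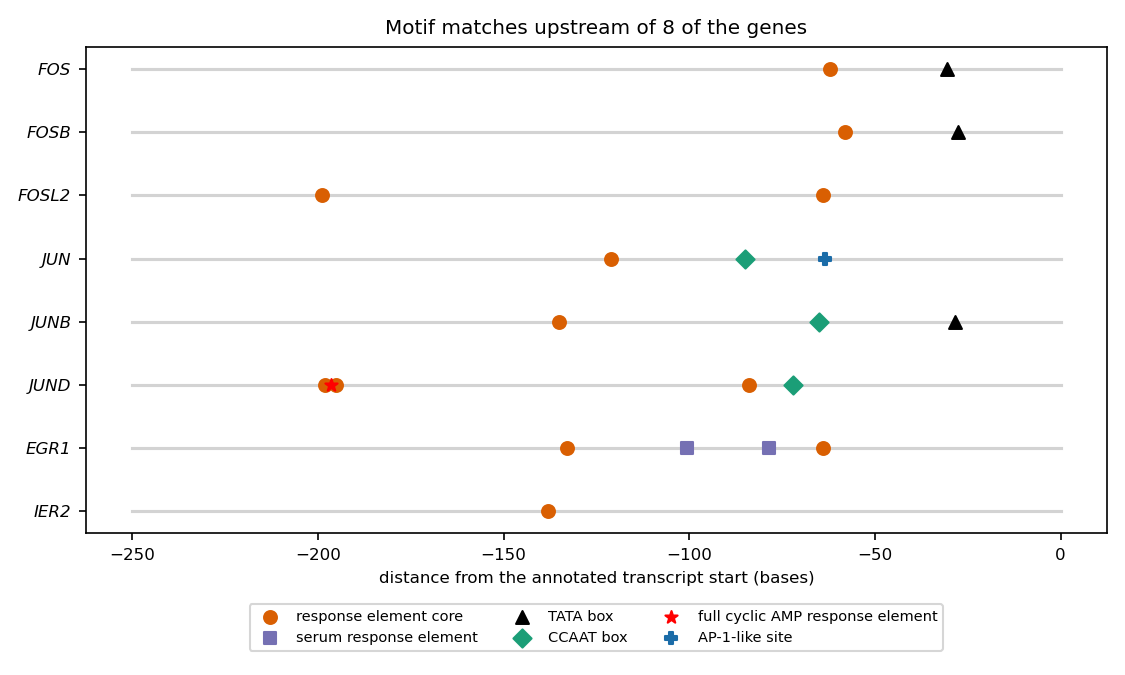
Motif matches in the 250 bases before the annotated start of 8 members, with the distance from the start in bases on the x axis and 1 line per gene. Each symbol is the centre of a match on either strand. The core TGACG (orange) stands in all 8 lines, and the 2 serum response element matches are both in EGR1.

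JUN, a core AP-1 subunit, held the most counts of the 10 genes, 3735 over all libraries, with 112 to 309 in a single library. It made up 34.72 to 43.8% of the members' counts in a library. IER2 followed with 1363 counts and MYC with 1260. EGR1 held the fewest, 280 over all libraries and 7 to 30 in one. The depth behind a value therefore differed more than 10-fold between members, and the median standard error of a day difference over the 10 members was 0.21 to 0.25 on the log2 scale, against 0.11 to 0.12 for JUN. The region counted per gene is not given in the sources used here, and total counts did not grow with gene span beyond 30 kb, with a median of 395 for genes of 30 to 100 kb and 396.5 for genes of 300 to 1000 kb. Levels were therefore set side by side per length only for the single-exon genes JUN, JUNB and JUND, which span 3257, 1830 and 1929 bases. Genes under 2 kb had a median of 22 counts and genes of 2 to 5 kb a median of 168, so dividing by length does not remove the part of span from a ratio of JUN to the shorter genes. On the scale of CPM per kb, JUN had a median of 47.1 over the 18 libraries, JUND 14.6 and JUNB 11.0. JUN lay above both in every library, by 2.95 to 6.66 times JUNB and 2.29 to 4.94 times JUND, while JUNB (8.11 to 14.5) and JUND (8.39 to 19.6) overlapped.

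**Figure D2:**
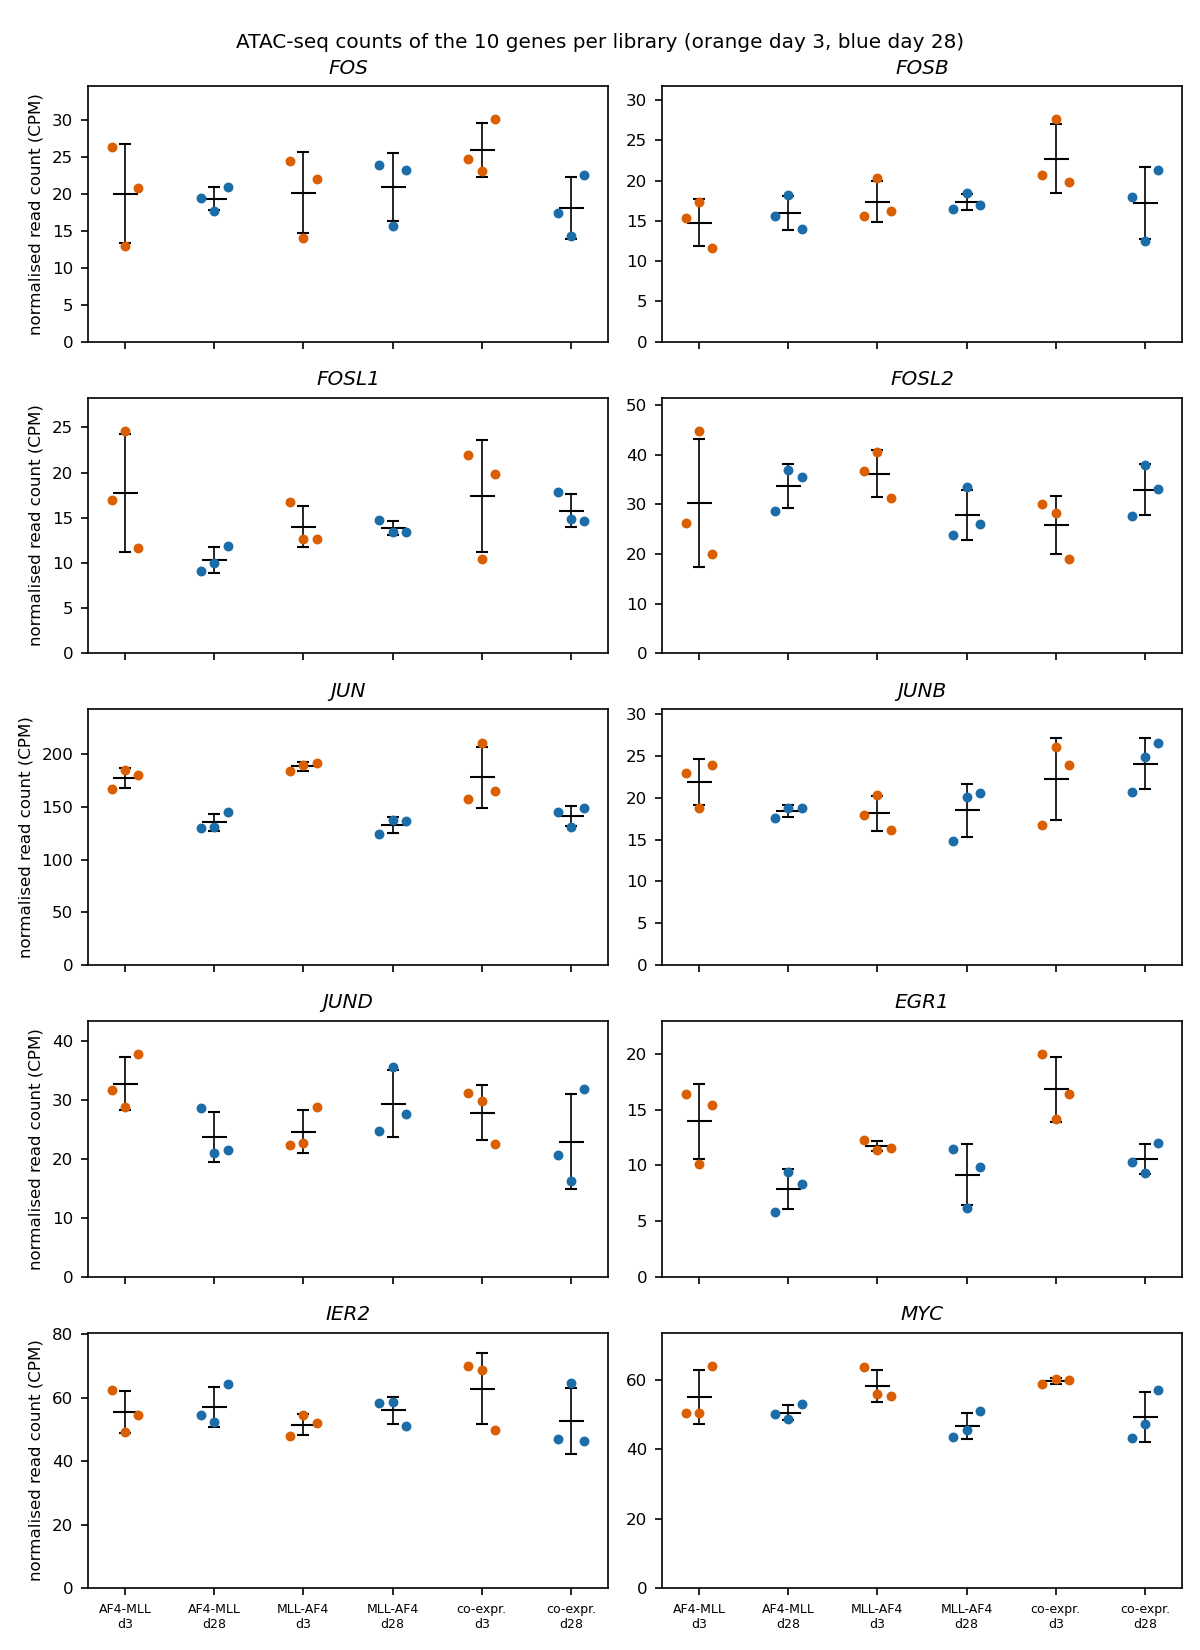
Normalised read counts (CPM, y axis from 0) of the 10 genes in the 18 libraries by group (x axis), orange for day 3 and blue for day 28. Points are libraries, and the black bars are the mean ± SD of 3. JUN sits at 158 to 211 CPM in all 9 libraries of day 3 and at 124 to 149 CPM in all 9 of day 28.

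Libraries of day 28 were set against those of day 3 to see what differed after weeks of further culture. JUN was lower on day 28 in each setting, and the difference passed the test in MLL-AF4 cells. On day 3 the 3 AF4-MLL libraries had 167, 185 and 180 CPM of JUN and on day 28 they had 130, 131 and 145 CPM. For the MLL-AF4 libraries the values were 184, 190 and 192 CPM, then 124, 138 and 137 CPM. For the co-expression libraries they were 158, 211 and 165 CPM, then 145, 131 and 149 CPM. No library of day 28 reached the lowest library of day 3, in any setting or across settings. Within a setting, 7.09% of all genes in AF4-MLL, 10.7% in MLL-AF4 and 7.38% in co-expression cells lay apart with day 28 lower. The share of all genes apart across the settings was not counted.

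In MLL-AF4 cells the log2 difference of JUN was −0.50 (SE 0.12, 95% interval −0.73 to −0.27, edgeR adjusted p 0.0033), which is 1.42-fold lower. This was the 1 member called, while 2.87% of all genes tested were called in that comparison and 1.57% were called lower (1 member and 15.8% of genes at an unadjusted p under 0.05). In AF4-MLL cells the log2 difference of JUN was −0.38 (SE 0.11, adjusted p 0.082), with 0 members called against 0.606% of all genes (4 members and 9.29% of genes at an unadjusted p under 0.05). In co-expression cells it was −0.33 (SE 0.11, adjusted p 0.16), with 0 members called against 0.606% of all genes (4 members and 9.51% of genes at an unadjusted p under 0.05). In both of these DESeq2 also called 0 members, while limma voom called JUN, with adjusted p 0.0062 and 0.034. The call in MLL-AF4 cells was kept in 27 of 28 alternatives and in every fit without 1 library, and was lost with no filter on low counts, with a log2 difference of −0.45 and adjusted p 0.068. Here and below, the 28 include the fits without each of the 18 libraries. Libraries outside a comparison bear on it only through the filter, scaling and shared spread. The 28 also include the fits with a promoter GC offset, which is void as a check for the reason given in the last section.

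The 3 day differences of JUN were not shown to differ from each other. The interaction terms were 0.17 (SE 0.16, 95% interval −0.14 to 0.48) between co-expression and MLL-AF4 cells, 0.12 (SE 0.16, interval −0.19 to 0.44) between AF4-MLL and MLL-AF4 cells, and 0.04 (SE 0.15, interval −0.26 to 0.35) between co-expression and AF4-MLL cells. The mean of the 3 day differences was then tested in the same fit, a contrast chosen after these values were seen. For JUN it was −0.41 (SE 0.06, 95% interval −0.53 to −0.28, edgeR adjusted p 3e-07), a 24.5% lower value that ranked 65 of 17660 genes by p-value and was called in 28 of 28 alternatives. Over the 9 libraries of a day, JUN had 181 ± 16.3 CPM on day 3 and 137 ± 8.5 CPM on day 28. In this contrast 2 members were called, JUN and EGR1, both lower, against 4.12% of all genes called and 2.08% called lower.

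The genes around JUN did not show a like difference. The 20 nearest tested genes on chromosome 1 had a median mean difference of 0.14, and 4 of the 20 were below 0. The nearest tested genes, MYSM1 at 80.7 kb and LINC01358 at 236 kb, had adjusted p of 0.79 and 0.35. Among the 264 genes averaging 100 counts or more, 6 had a mean difference as low as that of JUN or lower (2.27%). The higher mitochondrial share of day 28 moved with it. With total nuclear counts as the only scaling, which moved the median of all genes by −0.20 in this contrast, JUN differed by −0.61. The part of the mitochondrial share in the difference was not tested.

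EGR1 was the other member called over the mean of the settings. In AF4-MLL cells its values were 16.4, 10.1 and 15.4 CPM on day 3 and 5.86, 9.39 and 8.37 CPM on day 28. For MLL-AF4 the libraries of day 3 had 12.3, 11.4 and 11.6 CPM and those of day 28 had 11.5, 6.14 and 9.85 CPM. In co-expression cells these were 20, 14.2 and 16.4 CPM and then 10.3, 9.34 and 12 CPM. The groups were apart in AF4-MLL and co-expression cells and overlapped in MLL-AF4 cells, where 1 library of day 28 lay between those of day 3.

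None of the single differences of EGR1 passed the test. They were −0.90 (SE 0.31, edgeR adjusted p 0.25) in AF4-MLL cells, −0.42 (SE 0.37, adjusted p 0.63) in MLL-AF4 cells and −0.72 (SE 0.28, adjusted p 0.33) with both constructs. Their mean was −0.68 (SE 0.19, 95% interval −1.05 to −0.31, adjusted p 0.018), or 1.60-fold lower. This call was kept in 25 of 28 alternatives and rests on few reads. It was lost without replicate 1 of the AF4-MLL cells of day 3 (−0.63, adjusted p 0.059), without replicate 2 of the MLL-AF4 cells of day 28 (−0.59, adjusted p 0.065) and with DESeq2 (−0.68, adjusted p 0.083). The 20 tested neighbours of EGR1 had a median mean difference of 0.02.

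MYC was lower on day 28 than on day 3 by 0.33 in MLL-AF4 cells (1.25-fold) and by 0.34 in co-expression cells (1.26-fold), without passing the test. Its MLL-AF4 libraries had 63.6, 55.8 and 55.5 CPM on day 3 and 43.7, 45.7 and 51.0 CPM on day 28. Its co-expression libraries had 58.7, 60.4 and 60.1 CPM on day 3 and 43.2, 47.3 and 57.2 CPM on day 28. In both settings the groups did not overlap, whereas the AF4-MLL libraries, at 50.4, 50.6 and 64.0 CPM against 50.1, 48.6 and 53.0 CPM, did. The log2 differences were −0.13 (SE 0.15, adjusted p 0.85) in AF4-MLL, −0.33 (SE 0.17, adjusted p 0.32) in MLL-AF4 and −0.34 (SE 0.15, adjusted p 0.40) in co-expression cells. The mean was −0.26 (SE 0.09, 95% interval −0.44 to −0.09, adjusted p 0.064), under 0.05 in 3 of 26 alternatives.

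The other JUN genes did not share the pattern of JUN in all settings. JUND, which is present more steadily than the other subunits, had 31.8, 28.9 and 37.8 CPM in AF4-MLL cells on day 3 and 28.7, 21.0 and 21.6 CPM on day 28, a difference of −0.49 (SE 0.20, adjusted p 0.36). In MLL-AF4 cells the value was 0.29 (SE 0.23, adjusted p 0.59), and with both constructs −0.40 (SE 0.21, adjusted p 0.54). JUNB, which can act against JUN in AP-1, had day differences of −0.29 in AF4-MLL, 0.05 in MLL-AF4 and 0.08 in co-expression cells. The 95% interval of its mean difference was −0.33 to 0.22. It left out the JUN estimate of −0.41 but overlapped the interval of JUN, −0.53 to −0.28. JUN and JUNB were not tested against each other. JUNB overlaps HOOK2, and reads in the shared stretch cannot be assigned to either.

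The FOS family had no called member on either side. FOS had 24.7, 23.1 and 30.1 CPM in co-expression cells on day 3 and 17.4, 14.3 and 22.6 CPM on day 28, without overlap and with a log2 difference of −0.59 (SE 0.22, adjusted p 0.29). In AF4-MLL cells it was at −0.18 and in MLL-AF4 cells at −0.01. FOSL1 had a difference of −0.69 (SE 0.29, adjusted p 0.39) in AF4-MLL cells, with overlapping libraries of 11.6 to 24.6 CPM on day 3 and 9.12 to 11.9 CPM on day 28. FOSB and FOSL2 had day differences from −0.45 to 0.33 over the settings, with adjusted p of at least 0.46, and FOSL2 overlaps the antisense gene FOSL2-AS1, whose reads cannot be told from its own. IER2 had differences of −0.01 in AF4-MLL, 0.13 in MLL-AF4 and −0.23 in co-expression cells, and the 95% interval of its mean difference was −0.21 to 0.14.

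Over the 10 members the median day difference was −0.24 in AF4-MLL, −0.02 in MLL-AF4 and −0.34 in co-expression cells, while the median of all genes tested was within 0.01 of 0 in each. The members below 0 numbered 8, 6 and 8 in this order, beside 50.4, 49.6 and 50.2% of all genes. Groups lay apart with day 28 lower for 3 members in AF4-MLL cells (JUN, JUND and EGR1; 7.09% of all genes), for 2 in MLL-AF4 cells (JUN and MYC; 10.7%) and for 4 in co-expression cells (FOS, JUN, EGR1 and MYC; 7.38%), and no member lay apart with day 28 higher. The summed values of the 10 genes were 439.4 ± 3.48, 440.9 ± 2.46 and 459.5 ± 37 CPM (SD, n = 3) at day 3, in the order AF4-MLL, MLL-AF4, co-expression. On day 28 they were 372.5 ± 18.3, 372.6 ± 14.9 and 385.2 ± 25.6 CPM.

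**Figure D3:**
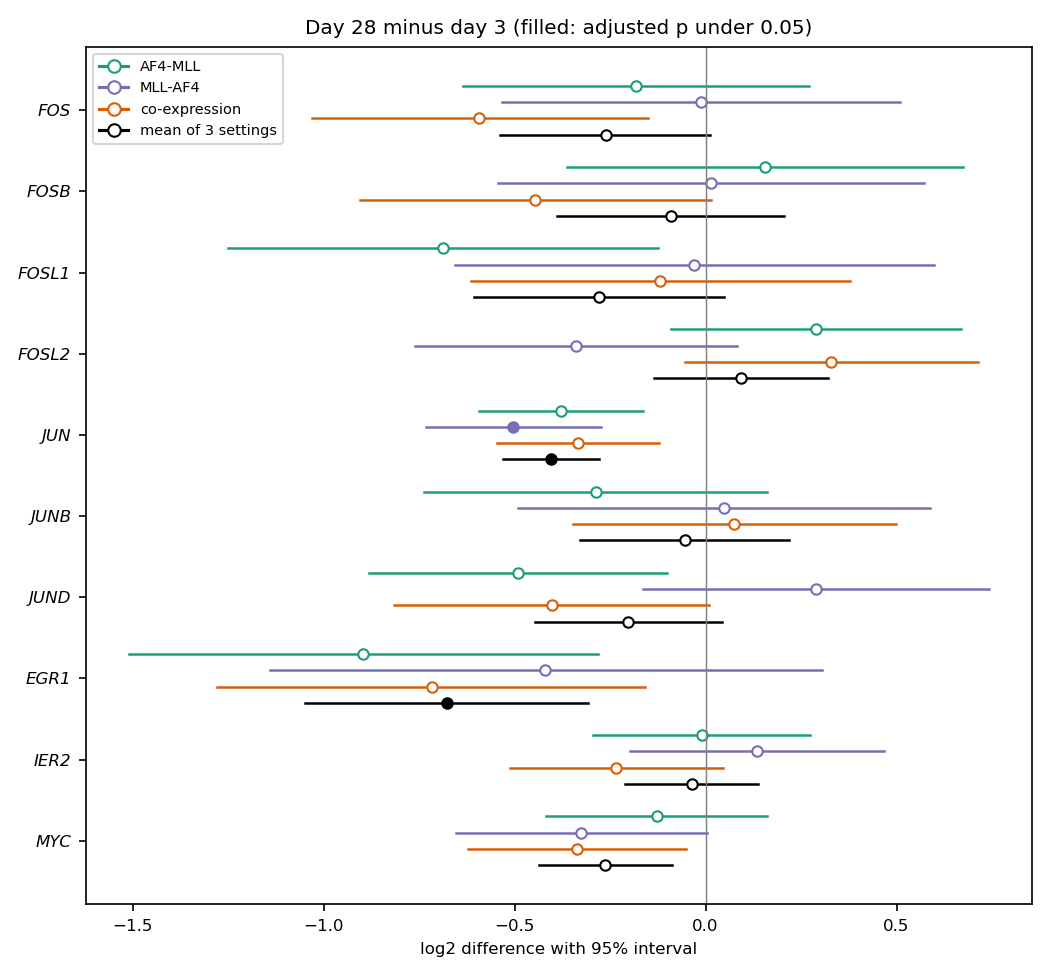
Log2 difference of day 28 minus day 3 (x axis) for the 10 genes (y axis) in the 3 settings and for the mean of the 3, with 95% intervals from the edgeR fit. Filled points have an adjusted p under 0.05. These are JUN in MLL-AF4 cells (−0.50) and, for the mean, JUN (−0.41) and EGR1 (−0.68).

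The cells with both fusions were set against each single fusion, and the single fusions against each other, within a day. None of the 10 genes was called between settings on either day. On day 3 the calls among all genes were 1.81% against MLL-AF4 cells, 1.28% against AF4-MLL cells and 0.142% between the single fusions, and on day 28 they were 1.17%, 1.69% and 0.0793%. DESeq2 and limma voom also called 0 members in each of these 6 comparisons, and 4 of the 60 values had an unadjusted p under 0.05, at most 1 in a comparison, where 14.5, 12.3 and 9.55% of all genes did on day 3 and 11.8, 12.7 and 8.26% on day 28. JUN differed between settings by −0.10 to 0.01 on day 3 and by 0.02 to 0.08 on day 28, with 95% intervals that reached no further than −0.33 and 0.30.

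The 4 values were from FOS family members and JUND. FOSB was higher in co-expression than in AF4-MLL libraries on day 3, at 20.7, 27.6 and 19.8 against 15.3, 17.4 and 11.6 CPM, with a log2 difference of 0.64 (SE 0.25, adjusted p 0.22). FOSL2 had 30, 28.3 and 19.1 CPM in co-expression and 36.8, 40.6 and 31.2 CPM in MLL-AF4 libraries on day 3 (−0.48, SE 0.22, adjusted p 0.26). FOSL1 had 17.9, 14.9 and 14.6 CPM in co-expression and 9.12, 9.94 and 11.9 CPM in AF4-MLL libraries on day 28 (0.66, SE 0.28, adjusted p 0.25). In these 3 comparisons the groups did not overlap, as for 16.5, 19 and 16.8% of all genes. JUND had 20.7, 16.2 and 31.9 CPM in co-expression and 24.7, 35.7 and 27.7 CPM in MLL-AF4 libraries on day 28, with overlap (−0.52, SE 0.21, adjusted p 0.25). None of these 4 was called in any alternative.

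**Figure D4:**
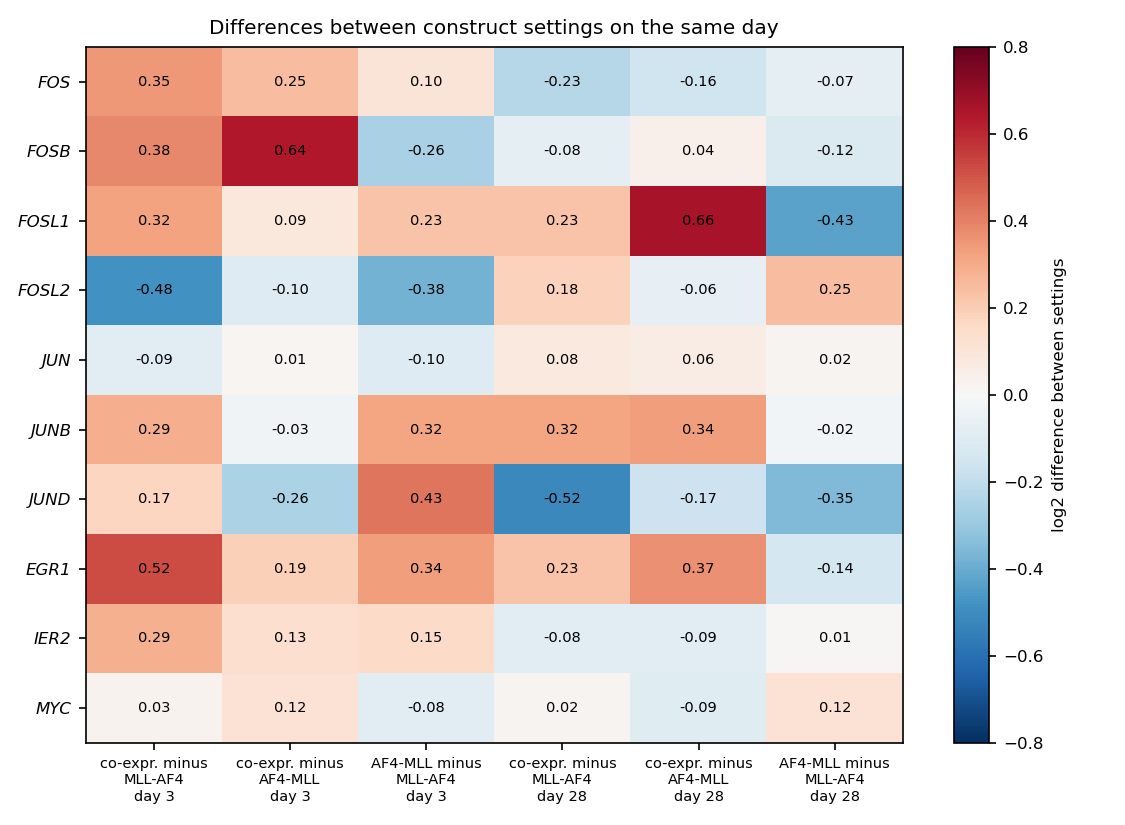
Log2 differences between construct settings on the same day (columns) for the 10 genes (rows), with the value in each cell and the colour scale from −0.8 to 0.8. None has an adjusted p under 0.05, and the JUN row runs from −0.10 to 0.08.

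Interaction terms compared the day differences of the settings, and 0 of the 10 genes were called in each of the 3. Of all genes, 0.232% were called between co-expression and MLL-AF4 cells, 0% between co-expression and AF4-MLL cells and 0.317% between AF4-MLL and MLL-AF4 cells. At an unadjusted p under 0.05 the shares were 9.73, 5.05 and 9.75%, and 2, 0 and 2 members passed. For the pair with 0% DESeq2 and limma voom also called 0 genes. These were FOSL2 and JUND each time. For FOSL2 the terms were 0.67 (SE 0.29, edgeR adjusted p 0.40) and 0.63 (SE 0.29, adjusted p 0.44), and for JUND −0.69 (SE 0.31, adjusted p 0.43) and −0.78 (SE 0.30, adjusted p 0.33). Both share the MLL-AF4 libraries, in which JUND was at 0.29 and FOSL2 at −0.34 between the days.

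Other immediate early genes, a list of 37 that all passed the count filter, held called genes in the day comparisons, and all were lower on day 28. These were 1 of 37 in AF4-MLL, 2 in MLL-AF4 and 2 in co-expression cells, where 0.606, 2.87 and 0.606% of all genes were called, with list medians of −0.10, −0.15 and −0.04. RHOB, a small GTPase gene induced early by growth factors and stress, was called in each setting. Its values were 44.4, 37.6 and 38.5 CPM on day 3 and 22.1, 22.1 and 30.7 CPM on day 28 in AF4-MLL cells. They were 39.1, 49.5 and 47.4 against 21.4, 25.1 and 24.2 CPM in MLL-AF4 cells. They were 46, 38 and 43.7 against 27.7, 21.2 and 12 CPM in co-expression cells. All 9 libraries of day 3 lay above all 9 of day 28, and the share of all genes that did so was not counted.

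The log2 differences of RHOB were −0.73 (SE 0.19, edgeR adjusted p 0.021) in AF4-MLL, −0.92 (SE 0.21, adjusted p 0.002) in MLL-AF4 and −0.92 (SE 0.19, adjusted p 0.00037) in co-expression cells, and the mean was −0.86 (SE 0.11, adjusted p 8.8e-11). The AF4-MLL call was lost with DESeq2 (adjusted p 0.2) and in 4 fits without 1 library. These were the fits without replicate 1 (−0.63) or 3 (−0.78) of day 3 and without replicate 1 (−0.66) or 2 (−0.64) of day 28. With the promoter GC offset, which is void as a check, its edgeR adjusted p was 0.051 (0.092 with the replicate block as well). The mean was called in 28 of 28 alternatives. The 20 tested neighbours of RHOB had medians of −0.06, −0.16 and −0.0006 in the 3 settings.

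CTGF (also CCN2) and CYR61 (also CCN1), secreted matrix proteins and targets of SRF and YAP, were the next of this list. CTGF had 33.5, 27.9 and 37 CPM in the MLL-AF4 libraries of day 3 and 5.77, 16.7 and 24.2 CPM in those of day 28, a difference of −1.08 (SE 0.25, edgeR adjusted p 0.0037) that was not called without replicate 1 of day 28 (−0.74). Its differences in AF4-MLL and co-expression cells were −0.54 (adjusted p 0.46) and −0.20 (adjusted p 0.86), and the mean was −0.61 (adjusted p 0.0045). CYR61 was called in the mean, at −0.48 (SE 0.11, adjusted p 0.0021), and in no single setting. PPP1R15A, a phosphatase subunit that acts in the stress response, fell in co-expression cells from 46.7, 37.3 and 38.3 to 19.3, 20.5 and 19.9 CPM (−1.04, SE 0.20, adjusted p 8.4e-05). With MLL-AF4 alone the values were 13.4, 25.4 and 13.9 CPM, then 11.5, 27.3 and 20.6 CPM (0.26, adjusted p 0.70), and the interaction between these settings was −1.30 (SE 0.34, adjusted p 0.05) and was not called. Its mean over the settings (−0.42, adjusted p 0.049), named after its value was seen, was lost in 18 of 28 alternatives, 12 of them fits without 1 library with values from −0.43 to −0.31. In the mean 4 of the 37 genes were called, these 3 and RHOB, all lower, beside 4.12% of all genes called and 2.08% called lower.

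Between settings, the related genes called were all in comparisons with co-expression cells, in which 1.17 to 1.81% of all genes were called, against 0.142 and 0.0793% between the single fusions. The lists thus followed all genes in which comparisons held calls. Of the 37 immediate early genes, 1 was called higher and 3 lower against MLL-AF4 cells on day 3 (1.81% of all genes). Against AF4-MLL cells on day 3, 0 were called (1.28%). On day 28, 2 were lower against MLL-AF4 (1.17%) and 3 against AF4-MLL cells (1.69%). Of 14 leucine zipper partners tested, 2 were lower against MLL-AF4 cells on day 28, and 1 higher and 1 lower against AF4-MLL cells. These shares were not tested against each other. Of the leukocyte markers 1, PTPRC, was also lower in co-expression than AF4-MLL libraries of day 28 (7.92 ± 1.04 against 18.6 ± 5.36 CPM, −1.22, edgeR adjusted p 0.0063), beside the calls of DUSP2, IER5 and ATF3 in that comparison, and its part in them was not tested. On day 3 PPP1R15A was higher in co-expression than in MLL-AF4 cells (1.24, SE 0.24, edgeR adjusted p 0.00037). CTGF (−0.92, adjusted p 0.024), KLF4 (−0.87, adjusted p 0.039) and DUSP2 (−1.52, adjusted p 0.039) were lower, the last named after its values were seen. Leaving out replicate 1 or 3 of the MLL-AF4 or 1 or 2 of the co-expression libraries ended the call of CTGF (−0.90 to −0.74). Leaving out any MLL-AF4 library or replicate 2 or 3 of the co-expression libraries ended those of KLF4 (−0.87 to −0.77) and DUSP2 (−1.55 to −1.18). DESeq2 lost CTGF and KLF4 and gave no adjusted p for DUSP2, and with no filter all 3 were lost (adjusted p 0.13, 0.2 and 0.13). On day 28 DUSP2, a phosphatase that inactivates MAP kinases, had 0 to 7 counts and 1.72 ± 1.65 CPM (SD, n = 3) in co-expression libraries. It had 10.5 ± 3.11 CPM in MLL-AF4 (−2.19, SE 0.46, adjusted p 0.0019) and 12 ± 4.18 CPM in AF4-MLL libraries (−2.36, SE 0.44, adjusted p 0.00024). The first of these was lost with DESeq2 (adjusted p 0.089). IER5, an early response regulator, had 23.8 ± 1.77 CPM in co-expression against 47.4 ± 3.13 CPM in MLL-AF4 (−0.95, adjusted p 0.00025) and 42.4 ± 5.83 CPM in AF4-MLL libraries (−0.80, adjusted p 0.0033; DESeq2 0.063). IER5L was lower than in AF4-MLL cells as well (−0.64, adjusted p 0.039), a call lost with DESeq2 and without replicate 2 or 3 of the AF4-MLL or any of the co-expression libraries (−0.76 to −0.50).

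**Figure D5:**
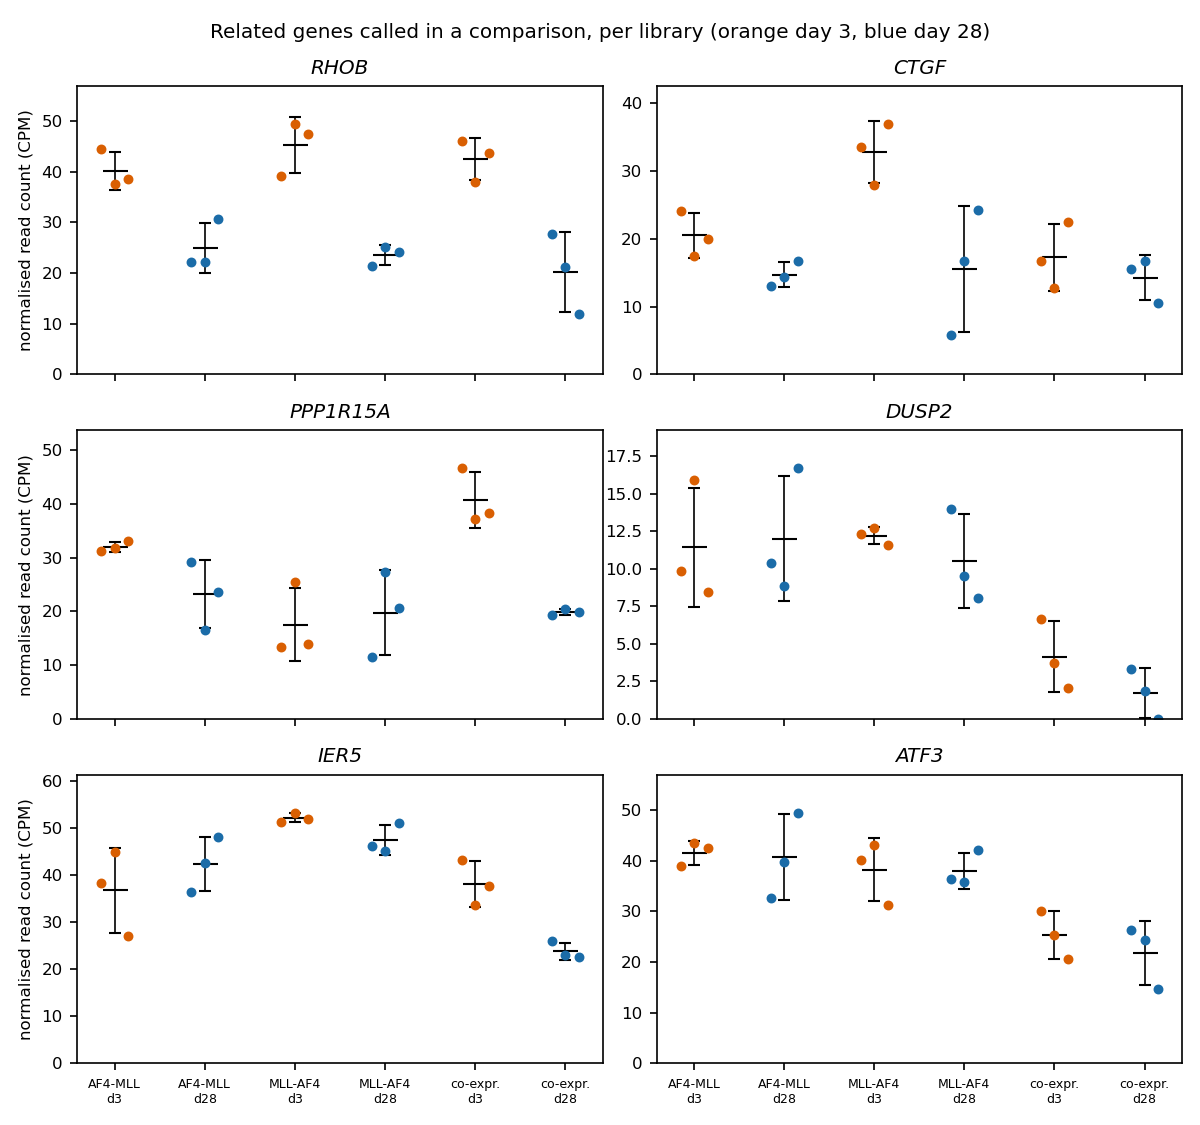
Normalised read counts (CPM, y axis from 0) of 6 related genes in the 18 libraries by group (x axis), orange for day 3 and blue for day 28, with black bars for the mean ± SD of 3. RHOB is at 37.6 to 49.5 CPM on day 3 and 12 to 30.7 CPM on day 28, and DUSP2 is lowest in the co-expression libraries.

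Of 15 other leucine zipper partners, 14 were tested. CREB1, whose protein binds the element above, was the 1 called between days, lower on day 28 in MLL-AF4 cells (−0.68, SE 0.17, edgeR adjusted p 0.0099), a call lost without replicate 1 or 3 of either day (−0.65 to −0.59) and with no filter on low counts (adjusted p 0.067). ATF3, a stress-induced partner of JUN, had lower values with both constructs than with AF4-MLL alone on day 3 (25.3 ± 4.75 against 41.6 ± 2.35 CPM, −0.69, adjusted p 0.031) and on day 28 (21.7 ± 6.25 against 40.6 ± 8.52 CPM, −0.78, adjusted p 0.006). Against MLL-AF4 cells on day 28 it differed by −0.68 (adjusted p 0.043). These 3 calls were lost with DESeq2, the first and the last also with no filter (adjusted p 0.16 and 0.14) and the last with limma voom (adjusted p 0.057). The first was also lost without any AF4-MLL library or replicate 2 or 3 of the co-expression libraries of day 3 (−0.76 to −0.56). The next was lost without replicate 3 of the AF4-MLL libraries of day 28 (−0.63). The last was lost without any of the 6 libraries compared, replicate 3 of AF4-MLL or replicate 1 of MLL-AF4 on day 3 (−0.83 to −0.56). BATF3, near ATF3 on the same chromosome, was lower than in MLL-AF4 cells on day 28 (−1.43, adjusted p 0.03), and lost the call without replicate 2 or 3 of the MLL-AF4 or any co-expression library (−1.53 to −1.19). ATF4 was higher than in AF4-MLL cells on day 28 (0.59, adjusted p 0.03), and lost the call without replicate 1 or 2 of the AF4-MLL or any co-expression library (0.54 to 0.64). DESeq2 and the fit with no filter called neither, and limma voom did not call BATF3 (adjusted p 0.077).

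The 20 tested neighbours of these genes moved in part with them. Those of ATF3 had medians of −0.29, −0.38 and −0.39 in its 3 called comparisons, in this order, with 17 to 19 of 20 below 0. Those of DUSP2 on day 28 had medians of 0.06 and 0.10, with 8 and 9 of 20 below 0. Those of IER5 were at −0.19 and −0.21, with 14 and 18 of 20 below 0. For IER5L the median was −0.26 (19 of 20 below 0), and for KLF4 −0.29 (14 of 20). For CTGF on day 3 it was −0.002 (10 of 20 below 0), and for ATF4 0.02 (8 of 20). The part of these stretches in the calls was not tested.

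Among 12 genes of the MYC network 0 were called between days. MGA, a MAX partner on chromosome 15, was higher in co-expression than in MLL-AF4 (0.76, SE 0.17, edgeR adjusted p 0.0042) and in AF4-MLL cells (0.95, SE 0.17, adjusted p 0.00014) on day 28, and none of its 20 neighbours was below 0 (medians 0.54 and 0.58). The first of these calls was lost with DESeq2 (adjusted p 0.13) and when replicate 3 of MLL-AF4 on day 28 was left out (0.68). MNT, a MYC antagonist that also pairs with MAX, was lower in the same comparisons (−0.61, adjusted p 0.038, and −0.66, adjusted p 0.011). Its neighbours were below 0 in 20 of 20 cases each time, with medians of −0.56 and −0.45, and their part in the calls was not tested. Both calls of MNT were lost with DESeq2 and without replicate 1 or 2 of the co-expression libraries, the first also without replicate 2 or 3 of MLL-AF4 (−0.61 to −0.51) and the other without replicate 2 of AF4-MLL (−0.67 to −0.57). MXD4 was lower than in MLL-AF4 cells on day 3 (−0.63, adjusted p 0.039), a call lost with DESeq2 and without any 1 of the 6 libraries compared (−0.70 to −0.53).

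Of 25 upstream kinases and SRF pathway factors 24 were tested, and 0 were called between days in a single setting. MAPK8, the JNK1 gene, was lower with both constructs than with MLL-AF4 alone on day 3 (−0.95, SE 0.24, edgeR adjusted p 0.014). MAP2K4, which encodes a kinase that activates JNK, was lower with both constructs than with MLL-AF4 alone on day 28 (−1.59, SE 0.35, adjusted p 0.0036). It had 5 to 10 counts per co-expression library, and 19 of its 20 neighbours were below 0 (median −0.46). Both were lost with DESeq2. MAPK8 was lost without any MLL-AF4 library or replicate 2 of the co-expression libraries (−0.99 to −0.68), and MAP2K4 without replicate 2 of MLL-AF4 (−1.48) or 1 of co-expression (−1.49).

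Across the 18 libraries, which share days and settings, the genes whose log2 CPM moved most like that of JUN were C20orf27 (Pearson r 0.89), RTL8C (0.86) and DNASE1L1 (0.85). For the summed CPM of the members they were DNASE1L1 (0.87), RTL8C (0.86), C20orf27 (0.85), AC092910.3 (0.85) and HSPA5 (0.83). Among the 45 pairs of members r ran from −0.69 to 0.71 with a median of 0.08, and the highest was that of JUN with MYC. JUN with EGR1 had 0.52, and JUN with FOS 0.09.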

How the data were processed

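ATAC-seq counts of 18 libraries (6 groups of 3, from GEO's labels) were analysed. The authors deposited 1 table of raw counts per gene, whole numbers that are not normalised. Per the labels bcl2fastq, Bowtie2 and HTSeq were used on build GRCh38. Versions, the region counted per gene, and the handling of duplicate and multiply mapped reads and of the transposase offset are not given in the sources used here.

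The members and gene lists were chosen with earlier results of these data known. Counts were fitted with edgeR 4.0.16 in R 4.3.3, with TMM scaling, the filterByExpr filter (minimum count 10, minimum total 15), 6 groups and no covariate, and quasi-likelihood F tests over 17660 genes. A gene was called at a Benjamini-Hochberg adjusted p under 0.05. The biological coefficient of variation was 7.48%. There were 12 contrasts, and a mean of the day differences was added after the data were seen. Library totals set the precision. The script was tested on simulated data. DESeq2 1.42.0, limma 3.58.1 (voom), other scalings and filters, a promoter GC offset, a replicate block and leaving out each library were alternatives. Named genes were the members, up to 3 called genes per list and contrast, the genes most correlated with the members, the source gene KMT2A, and overlapping or nearest genes. Of the symbols, 34285 matched the RefSeq table of GRCh38.p14. A result for 1 gene of the kinase list is not reported here.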

Additional observations from a re-analysis of the deposited data

How the results depend on the processing

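JUN kept its direction in all 28 alternatives in each setting. The number of members called changed mainly with the scaling. With total nuclear counts as the only scaling, which moved the median of all genes by −0.22 in AF4-MLL, −0.16 in MLL-AF4 and −0.22 in co-expression cells and by −0.20 for the mean of the settings, it was 3 in AF4-MLL cells, 5 in co-expression cells and 7 for the mean. Limma voom gave 1 in AF4-MLL and 1 in co-expression cells, both JUN, and 3 for the mean, with MYC (adjusted p 0.049). A promoter GC offset, which kept 12273 of 17660 genes and 8 of 10 members and is void as a check because 69.5% of the genes had a value, gave 1 in AF4-MLL cells, and so did the replicate block with that offset. No filter on low counts gave 0 in MLL-AF4 cells, and DESeq2 gave 1 for the mean. In fits without 1 library the mean gave 1 to 3 called members, the 3 without replicate 3 of the co-expression cells of day 28, where MYC was added (−0.29, adjusted p 0.044). No filter also ended the calls of MXD4, MAPK8 and MNT in co-expression against MLL-AF4 cells. It ended those of IER5L and ATF4 against AF4-MLL cells as well, beside those named with CREB1, CTGF, KLF4, DUSP2, ATF3 and BATF3. Deviations of 45 same-numbered pairs of libraries correlated at −0.09 to 0.04, so the numbers were not treated as pairs. The replicate block alone left every count of members as it was, 1 in MLL-AF4 cells and 2 for the mean, and ended the calls of MNT (−0.58) and ATF3 (−0.68) against MLL-AF4 cells on day 28 and of PPP1R15A for the mean (−0.43). Causes of these changes were not tested. Between settings and in the interactions 0 members were called in every alternative. For EGR1, with 7 to 30 counts per library, depth limits what can be detected.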
